A study of Homo sapiens with 2 samples.

Results

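The 10 genes described here encode alpha, beta and gamma tubulins, and they were taken by name: the alpha tubulin genes TUBA1A, TUBA1B and TUBA1C, the beta tubulin genes TUBB, TUBB2A, TUBB2B, TUBB3, TUBB4B and TUBB6, and the gamma tubulin gene TUBG1. They are 10 of the 38690 protein-coding and lncRNA genes annotated on the chromosomes used. A peak was assigned to a gene when it touched the gene body or lay within 1000 bp of any of the gene's transcription start sites (TSSs), which gave 63 of the 66954 deposited peaks. The data came from A673, an established Ewing sarcoma cell line that carries the EWSR1-FLI1 fusion, labelled wild type and grown in RPMI medium with fetal calf serum. They comprised 1 chromatin immunoprecipitation (ChIP-seq) library for MYBL2 and 1 input library of the same cells, against which the authors called the peaks. The labels name an antibody to MYBL2, whereas the study's methods name one to its phosphorylated form. Each group had 1 library, so no value has a replicate error and no test between samples was possible. Whether the cells were A673 could not be checked from a list of MYBL2 peaks.

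Alpha and beta tubulin pair into the dimers from which microtubules are built, and gamma tubulin sits in a ring complex that starts new microtubules. The isotypes are encoded by separate genes with distinct tissue ranges. TUBA1B, TUBA1C, TUBB, TUBB4B, TUBB6 and TUBG1 are expressed widely, while TUBA1A, TUBB2A, TUBB2B and TUBB3 are best known from neurons, where TUBB3 serves as a marker. Dividing cells rebuild their microtubules into the mitotic spindle. MYBL2 is a transcription factor of proliferating cells that joins the MuvB complex at genes switched on for mitosis, and MuvB itself recognises a promoter element named CHR.

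To show what lay under the peaks, stretches free of annotated exons were read from the reference genome (GRCh37, which has the hg19 coordinates), 5′ to 3′ on the strand of the gene. Capitals mark exact matches to the motifs AACNG (the MYB core), TTTGAA with its variant TTCGAA (CHR), CCAAT (the box read by NF-Y), TTGGCGC with the variants spelled TTCCCGC, also TTCGCGC and further TTGCCGC (E2F), CCGGAAGT (ETS) and TATAAA (the TATA box), on either strand. The promoters of TUBB4B, at chr9:140135539-140135738, and of TUBA1B, at chr12:49525181-49525378 on the minus strand, had the strongest peaks. TUBB is shown around its summit, at chr6:30689267-30689350, because that summit lay in intron 1. The promoters of TUBA1C, at chr12:49658665-49658863, TUBB3, at chr16:89989550-89989745, and TUBB2A, at chr6:3157779-3157978 on the minus strand, show how motif content varied among genes of lower enrichment.
TUBB4B promoter: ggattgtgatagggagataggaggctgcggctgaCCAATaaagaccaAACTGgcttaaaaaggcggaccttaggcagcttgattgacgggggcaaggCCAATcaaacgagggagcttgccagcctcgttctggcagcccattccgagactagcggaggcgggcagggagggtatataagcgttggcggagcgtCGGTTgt
TUBA1B promoter: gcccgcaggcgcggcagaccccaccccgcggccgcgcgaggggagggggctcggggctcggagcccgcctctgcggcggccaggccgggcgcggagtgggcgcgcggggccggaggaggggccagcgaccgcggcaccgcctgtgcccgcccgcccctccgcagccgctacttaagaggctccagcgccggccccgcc
TUBB summit: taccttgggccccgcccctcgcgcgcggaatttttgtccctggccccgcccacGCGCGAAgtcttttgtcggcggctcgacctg
TUBA1C promoter: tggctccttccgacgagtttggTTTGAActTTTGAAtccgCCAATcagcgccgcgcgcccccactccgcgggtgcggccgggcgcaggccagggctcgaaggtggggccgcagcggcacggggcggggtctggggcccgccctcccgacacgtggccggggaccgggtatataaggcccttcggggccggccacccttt
TUBB3 promoter: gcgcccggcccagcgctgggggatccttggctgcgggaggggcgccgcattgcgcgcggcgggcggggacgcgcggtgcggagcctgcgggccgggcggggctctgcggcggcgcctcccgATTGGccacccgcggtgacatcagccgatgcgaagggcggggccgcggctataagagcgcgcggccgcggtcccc
TUBB2A promoter: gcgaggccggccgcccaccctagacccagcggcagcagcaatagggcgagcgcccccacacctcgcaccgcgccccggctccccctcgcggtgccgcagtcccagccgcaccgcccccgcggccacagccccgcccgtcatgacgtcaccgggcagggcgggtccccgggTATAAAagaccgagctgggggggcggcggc

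In the TUBB4B promoter the capitals are CCAAT boxes at −166 to −162 and −103 to −99 from the canonical TSS, a MYB core at −153 to −149 and a MYB core on the other strand at −7 to −3. The TUBA1B promoter had no match to any of the 6 motifs in the 198 bases shown, and its GC content was 83.8%, against 57.0% in the TUBB4B stretch. The capitals at the TUBB summit are an E2F motif read on the minus strand. In TUBA1C the matches are a pair of CHR elements in tandem, at −178 to −173 and −170 to −165, followed by a CCAAT box at −160 to −156. TUBB3 has an inverted CCAAT box at −79 to −75, and TUBB2A the exact letters TATAAA at −30 to −25. Other spellings of the TATA box, such as tatataag in the TUBB4B and TUBA1C stretches, were not searched and are not in capitals.

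MYBL2 peaks were found at the promoters of 10 of the 10 tubulin genes. In the same list 59.4% of all protein-coding genes had a promoter peak. Promoter peaks of at least 5-fold enrichment were also found at 10 of 10, against 49.6% of protein-coding genes. The fold enrichment is the authors' ratio of fragments stacked at the summit to the background expected there. The same small constant is added to both, so the value is below their plain ratio. For TUBB4B, TUBA1B, TUBB, TUBB3, TUBB2A and TUBB2B that background was the lowest of the whole list, 3.45 fragments, which 20.3% of peaks share. The number of stacked fragments, called the pileup, was recovered from the deposited values and is given with an exact 95% Poisson interval, which covers counting error only. Where a gene had several promoter peaks, the one of highest fold enrichment was used. Over the 11941 protein-coding genes with a promoter peak, here called bound coding genes, the median fold enrichment was 8.67 and the median pileup 43 fragments. The 10 tubulin genes had medians of 14.0 and 76 fragments.

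Among the alpha tubulin genes, all on chromosome 12, TUBA1B stood highest. Its promoter peak, at chr12:49523428-49525696, had a pileup of 166 fragments (interval 141.7 to 193.3) over a background of 3.45 and a fold enrichment of 37.5 (interval 32.1 to 43.6). This placed it at rank 70 of all peaks, and its summit lay in intron 1, 117 bp downstream of the canonical TSS. The peak also lay in the TSS window of the lncRNA gene TUBA1B-AS1. TUBA1C, the neighbouring widely expressed alpha gene, had a pileup of 122 fragments (interval 101.3 to 145.7) at chr12:49657977-49660008. Its background was also the highest among the 10 genes, 7.46 fragments, so that the fold enrichment was 14.5 (interval 12.1 to 17.3). The summit lay in the 5′ UTR, 93 bp into the gene. TUBA1A, the alpha tubulin of developing neurons, had 88 fragments (interval 70.6 to 108.4) over a background of 5.60, a fold enrichment of 13.5 (interval 10.9 to 16.6). That peak, at chr12:49581878-49583112, was the gene's only one and also lay within 1000 bp of a far upstream TSS of TUBA1C.

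Among the beta tubulin genes, TUBB4B had the highest value of the 10 genes. TUBB4B is a widely expressed isotype that is also used in cilia. At chr9:140134619-140136047 its peak held 167 fragments (interval 142.6 to 194.3), a fold enrichment of 37.7 (interval 32.3 to 43.9) and rank 66 of all peaks, with the summit at −4 bp from the canonical TSS. TUBB, the common beta tubulin of dividing cells, had 119 fragments (interval 98.6 to 142.4) and a fold enrichment of 27.0 (interval 22.4 to 32.2) at chr6:30686845-30691182, a peak 4338 bp wide. Its summit was 1198 bp downstream of the canonical TSS, in intron 1, and at −24 bp from another annotated TSS of TUBB. TUBB6, a widely expressed isotype of lower abundance, had 52 fragments (interval 38.8 to 68.2) and a fold enrichment of 11.1 (interval 8.31 to 14.4) at chr18:12307672-12309124, with the summit in the coding part of exon 1.

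The neuronal beta tubulin genes had promoter peaks as well. TUBB3 had 64 fragments (interval 49.3 to 81.7) and a fold enrichment of 14.6 (interval 11.3 to 18.6) at chr16:89988127-89990688, with the summit in intron 1. TUBB2A had 53 fragments (interval 39.7 to 69.3) and a fold enrichment of 12.1 (interval 9.14 to 15.8) at chr6:3157362-3158151. TUBB2B, its close relative on the same chromosome, had 41 fragments (interval 29.4 to 55.6) and a fold enrichment of 9.44 (interval 6.83 to 12.7) at chr6:3226911-3228355. The summits of TUBB2A and TUBB2B lay in the 5′ UTR, 40 and 44 bp into the gene.

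TUBG1, the gene for the gamma tubulin that nucleates microtubules, had the lowest value of the 10, and its peak was not centred on its canonical TSS. At chr17:40761161-40761824 it held 29 fragments (interval 19.4 to 41.6), a fold enrichment of 6.34 (interval 4.32 to 9.01), with the summit at −337 bp. The same peak lay in the TSS window of the neighbouring gene RETREG3, and the share of either gene in it could not be told apart. TUBG1 was the only member below the median of bound coding genes, at percentile 28.7 of them.

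**Figure D1:**
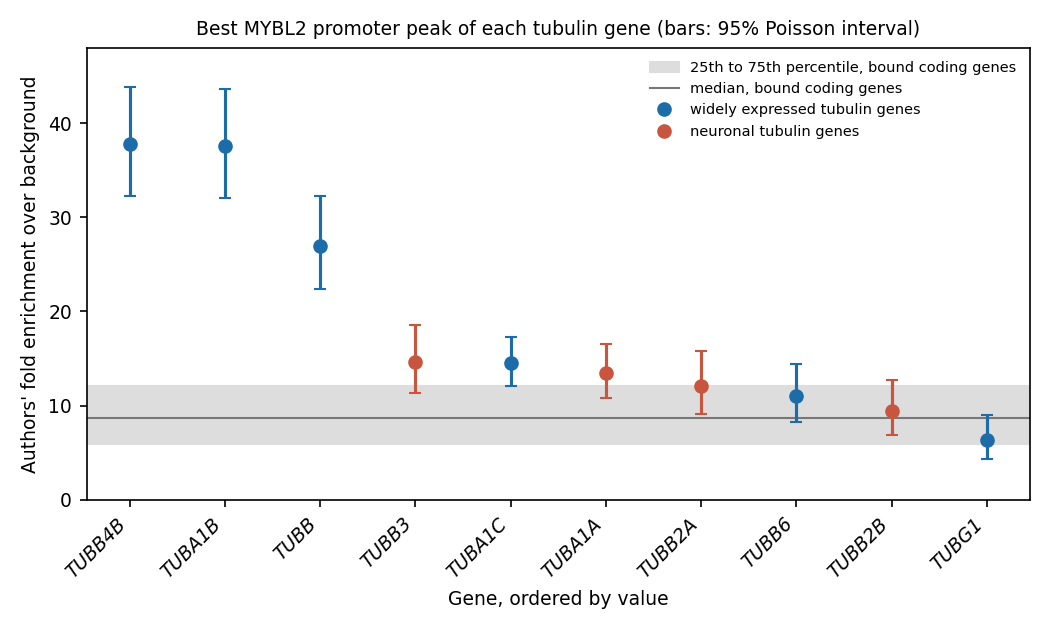
Fold enrichment of the best promoter peak (vertical axis, linear) of the 10 tubulin genes in order of value, in blue for widely expressed and red for neuronal genes, with exact 95% Poisson intervals from counting error in 1 library. The grey band and line are the quartiles (5.94 and 12.1) and the median (8.67) of bound coding genes. TUBB4B, TUBA1B and TUBB sit apart at 27.0 to 37.7, and the other 7 genes lie between 6.34 and 14.6.

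The genes fell into a group of 3 with strong peaks and a series of 7 in which no neighbours were separated. TUBB4B and TUBA1B were not separated by counting error (ratio of fold enrichments 1.01, interval 0.807 to 1.25). TUBA1B was above TUBB (ratio 1.39, interval 1.10 to 1.78), and TUBB was above TUBB3, the next gene (ratio 1.85, interval 1.36 to 2.56). Of the 6 neighbouring pairs below TUBB3, none differed beyond counting error, from TUBB3 over TUBA1C (ratio 1.00, interval 0.725 to 1.36) to TUBB2B over TUBG1 (ratio 1.49, interval 0.912 to 2.51). The ends of the order did differ, since TUBB4B was 5.95 times TUBG1 (interval 4.11 to 9.42). The intervals of these ratios use the Clopper-Pearson method on the pileups of a pair. Within the 7, the Poisson interval of TUBG1 (4.32 to 9.01) lay wholly below that of TUBB3 (11.3 to 18.6).

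Further pairs were compared after the values had been seen. TUBA1B was above both other alpha genes, by 2.78 times over TUBA1A (interval 2.15 to 3.66) and 2.58 times over TUBA1C (interval 2.04 to 3.30). TUBB4B was 2.58 times TUBB3 (interval 1.95 to 3.54), and TUBB was 2.44 times TUBB6 (interval 1.77 to 3.48). The near relatives TUBB2A and TUBB2B were not separated (ratio 1.29, interval 0.844 to 1.99). By pileup alone the order was not the same. TUBA1C, with 122 fragments, moved up beside TUBB with 119, and TUBA1A, with 88, stood above TUBB3 with 64.

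To compare widely expressed with neuronal members, their best promoter peaks were set side by side. The 6 widely expressed genes had a median fold enrichment of 20.7 (range 6.34 to 37.7) and a median pileup of 120.5 fragments (range 29 to 167). The 4 neuronal genes had a median fold enrichment of 12.8 (range 9.44 to 14.6) and a median pileup of 58.5 fragments (range 41 to 88). The groups overlapped, because TUBA1C, TUBB6 and TUBG1 lay within or below the neuronal range, and the 3 genes above that range, TUBB4B, TUBA1B and TUBB, were all widely expressed. The difference between the medians was 7.94, and it depended on single genes: it was 14.1 without TUBG1, 14.1 without TUBB6 and 1.04 with TUBB2A counted as widely expressed. With only the outermost TSS of each gene it was 3.59. The 4 neuronal members were not below the general level. Their median percentile among bound coding genes was 77.9, with TUBB2B lowest at 56.1 and TUBB3 highest at 84.8, against a median percentile of 91.1 for the widely expressed genes.

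CpG-rich promoters, found at 10447 of the 11941 bound coding genes, were shared by all 10 genes. The share over all protein-coding genes is not given here. The ratio of observed to expected CpG within 500 bp of the TSS ran from 0.630 in TUBA1C to 0.924 in TUBA1B, above the limit of 0.6 used here. Among the 10447 bound coding genes with such promoters, whose median fold enrichment was 8.99, the median percentile of the tubulin genes was 81.8, compared with 82.9 among all bound coding genes. The best promoter peaks were also wide, with a median width of 1449 bp against 865 bp over bound coding genes. In 8 of the 10 genes the summit lay within 150 bp of the canonical TSS, as it did in 53.9% of bound coding genes. The exceptions were TUBB and TUBG1, described above.

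The 63 peaks were unevenly spread over the genes and extended beyond the promoters. Of these, 20 lay at a promoter, with a median fold enrichment of 9.88, and 43 lay elsewhere in a gene, with a median of 3.91. There were 26 peaks of at least 5-fold enrichment and 37 weaker ones, and 6 ranked among the 1000 highest of the whole list of 66954. The weakest of the 26 had rank 15451 in that list, and the strongest of the 37 had rank 17589. The median fold enrichment was 4.24 over the 63 peaks and 3.79 over the whole list. TUBB6 had 24 peaks and TUBA1C 18, whereas TUBA1A, TUBB2A and TUBG1 had 1 each. The region searched was 86.9 kb for TUBA1C, 37.7 kb for TUBB6 and 3.42 kb for TUBB4B. Per 10 kb these genes had 2.07, 6.37 and 8.77 peaks. Whether the number of peaks depended on gene length was not tested.

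Peaks covered most of TUBB, TUBA1B and TUBB4B. The share of the region inside peaks was 70.6% for TUBB, 69.6% for TUBA1B and 64.9% for TUBB4B, at percentiles 97.4, 97.3 and 96.9 of bound coding genes, whose median was 4.27%. It was 26.6% for TUBB3, 25.7% for TUBB6, 23.8% for TUBB2B and 22.9% for TUBA1A. TUBA1C had 15.7% and TUBB2A 15.6%. TUBG1, widely expressed and with a region of 6.60 kb, shorter than the 9.10 kb of TUBB, had the lowest share, 10.1%. Gene length was not adjusted for, and the promoter windows make up more of the region in a short gene.

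**Figure D2:**
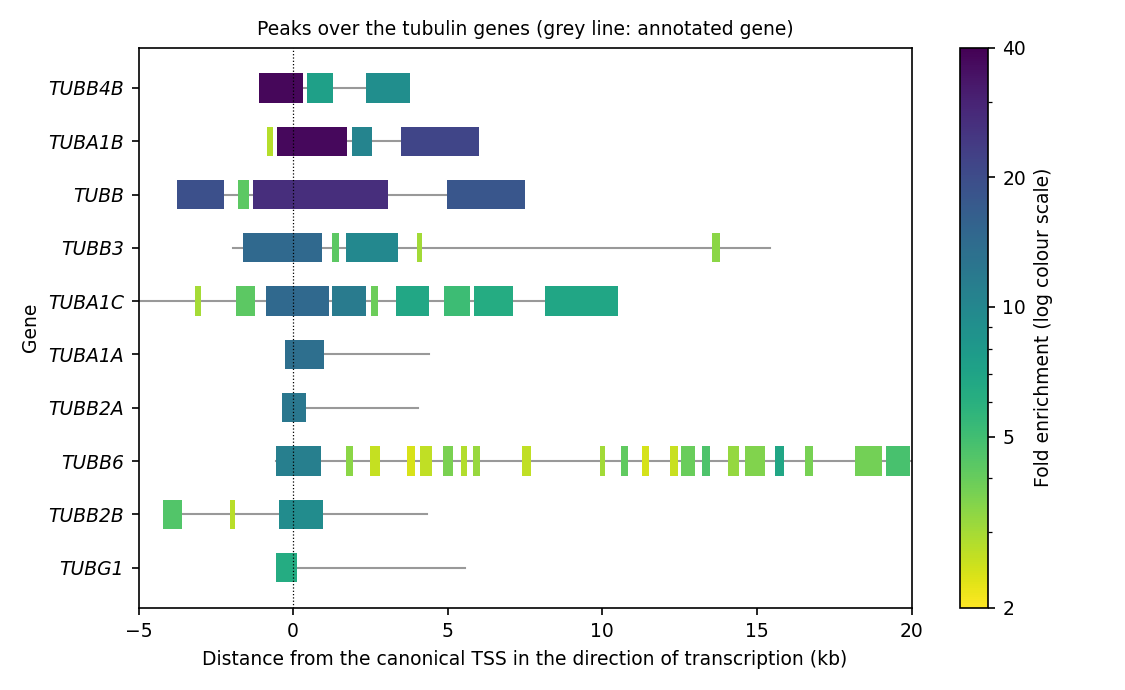
Peaks of the 10 tubulin genes (coloured boxes) and annotated genes (grey lines) by distance from the canonical TSS in kb, in the direction of transcription, with genes in order of fold enrichment and colour giving each peak's fold enrichment on a log scale. The window from −5 to 20 kb holds 52 of the 64 gene and peak pairs, and the rest belong to TUBA1C and TUBB6. TUBB4B, TUBA1B and TUBB are largely covered by peaks, TUBB6 carries many narrow weak ones, and TUBA1A, TUBB2A and TUBG1 have a peak at the start alone.

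Other peaks lay at further promoters and inside the genes. TUBB had a second promoter peak at chr6:30684364-30685879, with 85 fragments (interval 67.9 to 105.1) and a fold enrichment of 19.3 (interval 15.5 to 23.8). It covered an outer TSS of TUBB and lay in the window of MDC1, a gene for a mediator of the DNA damage checkpoint. TUBB3 had an intron 1 peak of 43 fragments and a fold enrichment of 9.88 (interval 7.22 to 13.2) at chr16:89991462-89993141. In TUBA1C, intron 1 held a peak with a fold enrichment of 11.6 (interval 8.82 to 15.1), and another of 10.1 (56 fragments) lay at −30344 bp from the canonical TSS, inside the annotated gene.

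TUBA1B had an intron 3 peak with a fold enrichment of 10.3 (interval 7.62 to 13.7) and TUBB4B one of 7.40 (interval 5.19 to 10.3), also in intron 3. The 20 peaks of TUBB6 away from its promoters reached 6.76 at most (31 fragments), and its promoter peak was the strongest of the gene. The outer TSS of TUBB2B had a peak of 19 fragments and a fold enrichment of 4.49 (interval 2.79 to 6.89), shared with the window of PSMG4, which encodes a proteasome assembly chaperone.

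At the 3′ ends, peaks were found at 8 of the 10 tubulin genes, counting peaks within 1000 bp of the canonical 3′ end that lay at no promoter of the gene. By the same measure 16.9% of protein-coding genes had such a peak. This measure was chosen after the values had been seen. TUBB2B and TUBG1 had none. TUBA1B had the strongest, with 121 fragments (interval 100.4 to 144.6) and a fold enrichment of 21.5 (interval 17.9 to 25.7) at chr12:49519184-49521682. That peak also lay in the TSS window of the antisense gene TUBA1B-AS1. TUBB followed with 88 fragments (interval 70.6 to 108.4) and a fold enrichment of 17.9 (interval 14.4 to 22.0) at chr6:30693116-30695624, a peak 2509 bp wide that lay in no other gene's TSS window. Over all protein-coding genes with a 3′ peak the median was 4.27, and TUBA1B and TUBB were at percentiles 98.5 and 97.6 of them.

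TUBB4B had a 3′ peak of 49 fragments and 9.20-fold enrichment (interval 6.85 to 12.1), whose summit lay over FAM166A, and TUBA1C one of 50 fragments and 6.77-fold (interval 5.06 to 8.89), which also lay in the TSS window of a lncRNA gene. The highest 3′ peak of TUBB6 was 4.79-fold (interval 3.24 to 6.86). The neuronal genes had the lower values, 3.37 for TUBB3 (interval 1.94 to 5.50), 3.23 for TUBA1A (interval 2.01 to 4.95) and 3.15 for TUBB2A (interval 1.78 to 5.22), which lay at percentiles 19.7, 16.7 and 12.4. The 3′ peaks of TUBA1A and TUBB2A lay outside the gene bodies and are not among the 63, and those of TUBB2A also lay in the TSS window of a lncRNA gene. The summit of the TUBA1A peak lay over TUBA1B-AS1, and those of the TUBB2A peaks over BPHL. Only at TUBB, TUBB3 and TUBB6 did the 3′ peaks have no other gene over the summit and lie in no other gene's TSS window. The intervals of TUBB6 and of the 3 neuronal genes overlapped. Those of TUBB and TUBA1B lay above all of these, and that of TUBB4B lay above the neuronal genes and touched that of TUBB6. The interval of TUBA1C overlapped those of TUBB4B and TUBB6 and also those of the neuronal genes TUBB3 and TUBB2A.

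**Figure D3:**
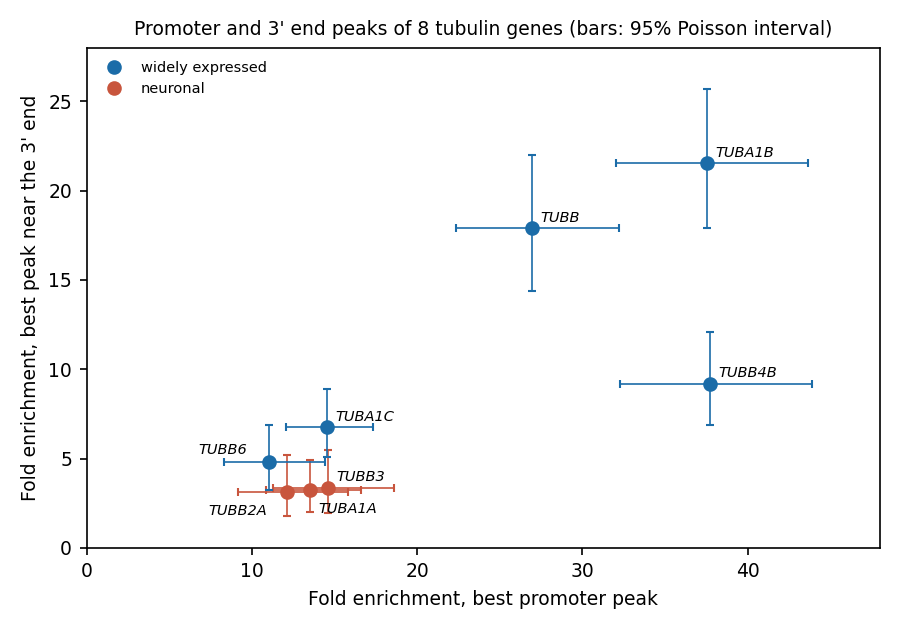
Fold enrichment of the best promoter peak (horizontal axis) against that of the strongest peak near the 3′ end (vertical axis) for the 8 tubulin genes that had both, with exact 95% Poisson intervals, in blue for widely expressed and red for neuronal genes. TUBA1B, TUBB and TUBB4B have 3′ values of 9.20 to 21.5, TUBA1C has 6.77 and TUBB6 4.79, and the neuronal genes lie together between 3.15 and 3.37.

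The motifs were then counted in all 10 genes, within 50 bp of the summit and in the 250 bases before the canonical TSS. A match says only that the letters are present. At the summits, a MYB core was found in 3 genes, TUBB4B, TUBB2B and TUBG1, and in 39.1% of bound coding genes. E2F motifs were found in 3, TUBB, TUBB3 and TUBB6, and in 8.93% of bound coding genes. CHR, CCAAT, ETS and TATA motifs were at 0 of the 10 summits, against 3.93%, 10.0%, 3.70% and 1.24%.

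Before the TSS the picture was another. CCAAT boxes were found in 8 of the 10 genes, all but TUBA1B and TUBB2A, and in 34.2% of protein-coding promoters. TUBB4B had 3 of them, at −232, −166 and −103 (position of the first base), and TUBA1A had 2, at −125 and −88. The others lay at −178 in TUBB2B, −165 in TUBB, −160 in TUBA1C, −79 in TUBB3, −68 in TUBB6 and −67 in TUBG1. CHR motifs were found in TUBA1C, TUBB3 and TUBB4B, 3 of 10 against 11.3%, and each of these promoters also held a CCAAT box. MYB cores were present in 3, TUBA1A, TUBB4B and TUBB6, against 67.4% of protein-coding promoters. Unlike the summit shares, the shares in this window are over protein-coding promoters with or without a peak. Base composition was not matched. E2F motifs were present in TUBB2B and TUBG1 (14.5% of promoters), the exact letters TATAAA in TUBB2A (9.28%), and ETS motifs in 0 of 10 (5.13%). Other TATA box spellings, such as the tatataag of TUBB4B and TUBA1C, were not counted. TUBA1B, whose peak was as strong as that of TUBB4B, had none of the 6 motifs in either window. That result depended on the window. A MYB core lay within 100 bp of its summit, and its whole peak held MYB, CHR, CCAAT and E2F matches.

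**Figure D4:**
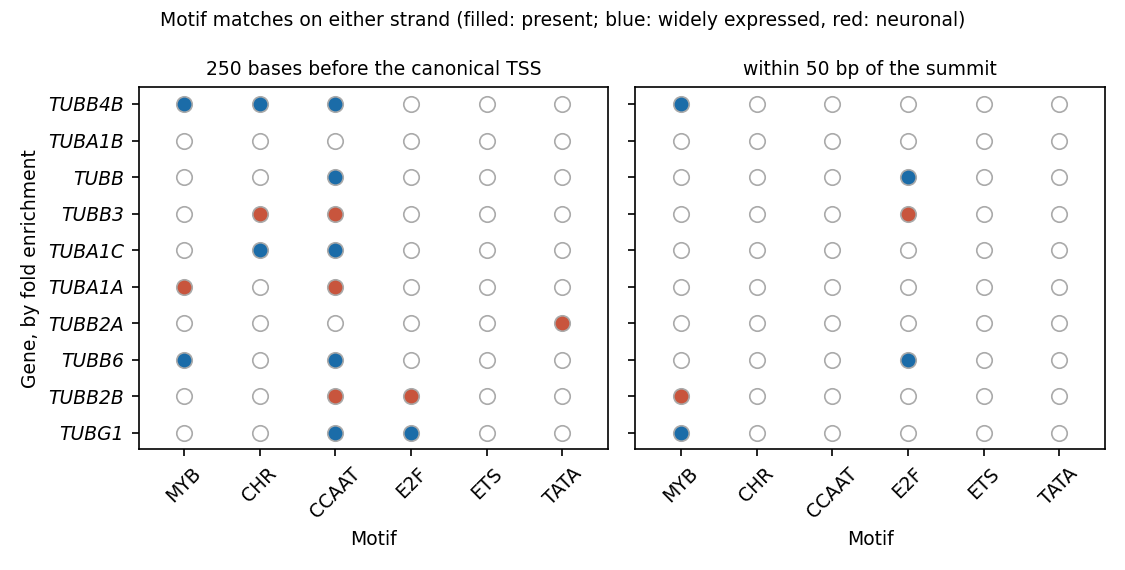
Presence (filled) or absence (open) of each of the 6 motifs, on either strand, in the 250 bases before the canonical TSS (left) and within 50 bp of the summit of the best promoter peak (right), for the 10 tubulin genes from highest to lowest fold enrichment. CCAAT is filled in 8 genes on the left and in none on the right, and TUBA1B is open in both of these windows.

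Tubulin needs helpers to fold, to nucleate and to be organised, and the genes for these were described from lists written from general knowledge. The counts stand beside 59.4% of protein-coding genes with a promoter peak, or 49.6% with one of at least 5-fold enrichment. CCT, the ring that folds newly made tubulin and actin, had promoter peaks at 8 of 8 genes with a median fold enrichment of 15.8, led by CCT8 at 30.0 (interval 25.7 to 34.9), CCT4 at 20.2 and CCT7 at 18.2. Prefoldin, which hands unfolded chains to CCT, had peaks at 6 of 6 genes with a median of 5.83, led by PFDN6 at 18.5, PFDN2 at 9.40 and PFDN5 at 6.14. The cofactors that assemble the alpha and beta dimer had peaks at 7 of 7 genes with a median of 8.47, led by TBCB at 13.5, TBCD at 12.7 and TBCC at 11.7.

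Genes of the gamma tubulin ring complex had peaks at 8 of 9, 7 of them of at least 5-fold enrichment, with a median of 13.4. TUBGCP5 reached 39.3 (interval 33.7 to 45.6), TUBGCP6 24.7 and TUBGCP2 15.1, and MZT2B had no promoter peak. TUBG1 itself, at 6.34, was thus below the median of its partners. Widely expressed microtubule regulators had peaks at 8 of 8 genes with a median of 13.8. The leading ones were CLASP1, which stabilises growing ends, at 51.4 (interval 45.1 to 58.4), CKAP5, a microtubule polymerase, at 23.4, and STMN1, which sequesters free dimers, at 20.7. Tubulin modifying and severing enzymes had peaks at 15 of 15 genes, 12 of them of at least 5-fold enrichment, with a median of 7.08. Their highest were the deacetylases SIRT2 at 14.8 and HDAC6 at 14.6, followed by TTLL12 at 10.8. Several of the peaks named also lay in a neighbouring gene's TSS window, among them those of CCT4 (with COMMD1), CCT7 (with PRADC1), PFDN6 (with WDR46), TBCB (with POLR2I) and SIRT2 (with NFKBIB), so that the part of either gene cannot be told apart.

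Neuronal microtubule regulators had promoter peaks at 4 of 8 genes, near the 59.4% of protein-coding genes, and 2 of these were of at least 5-fold enrichment. STMN3 had 14.2, in a peak shared with the window of RTEL1, MAP1B 9.33 and MAP1A 4.59, while DCX, MAP2, STMN2 and STMN4 had none. Of the 13 tubulin genes outside the 10, 5 had a promoter peak (38.5%), 4 of them of at least 5-fold enrichment. TUBD1 and TUBE1, for the delta and epsilon tubulins of centrioles, had 8.74 and 7.94, TUBA4A and TUBA4B shared a peak of 6.07, and TUBG2, the second gamma gene, had 4.49 (interval 2.79 to 6.89), overlapping that of TUBG1. The peaks of TUBD1, TUBE1 and MAP1A also lay in the TSS windows of RPS6KB1, FAM229B and TP53BP1, in that order. The part of either gene in them cannot be told apart. The 8 without a promoter peak were TUBA3C, TUBA3D, TUBA3E, TUBA8, TUBAL3, TUBB1, TUBB4A and TUBB8. The lists are small, and no difference between them was tested.

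**Figure D5:**
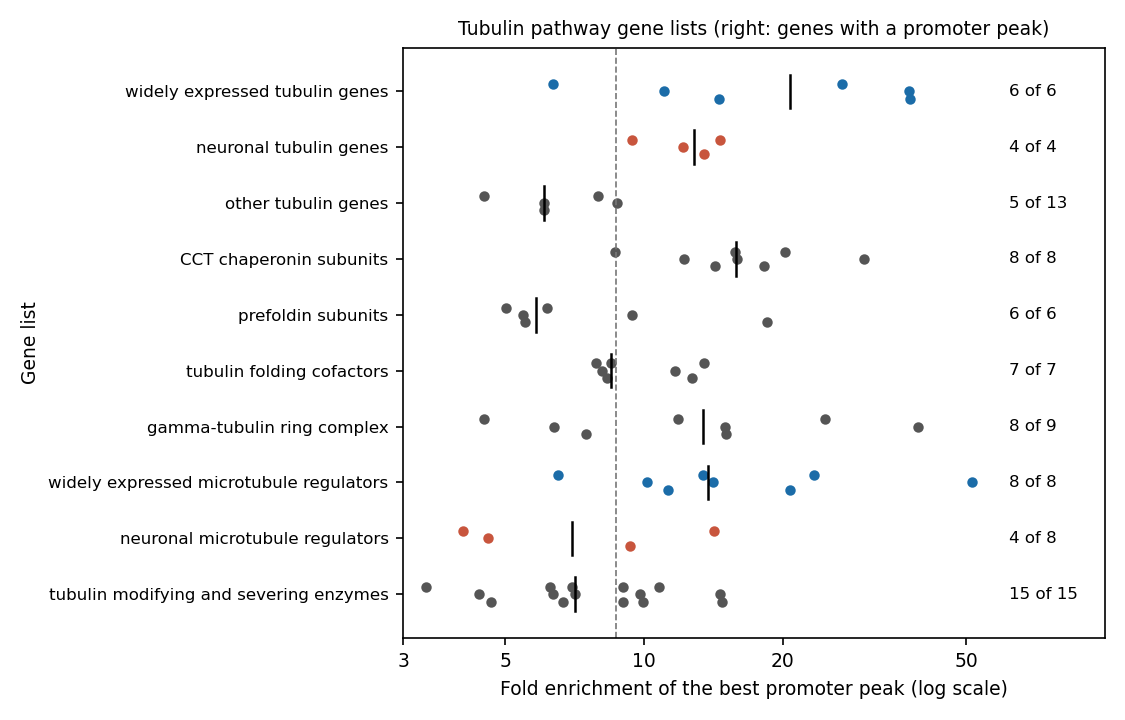
Fold enrichment of the best promoter peak (horizontal axis, log scale) for each gene of the tubulin pathway lists, 1 point per gene with a promoter peak (blue for widely expressed, red for neuronal and grey for other lists), the black bar giving the list's median and the dashed line the median of bound coding genes (8.67). The numbers at the right give how many genes of the list had a promoter peak, from 5 of 13 other tubulin genes to all genes in 7 of the 10 lists.

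Tubulin genes have near-identical copies, to which reads can be misassigned. Of the 63 peaks, 61 held no stretch of 100 bases, the read length, that occurs exactly anywhere else on the chromosomes of the reference. The exceptions were TUBA1B peaks away from its best promoter peak, with 1.33% of such stretches repeated in the 3′ peak and 7.66% in the intron 3 peak. The best promoter peaks of the 10 genes had 0%.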

How the data were processed

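A673 cells gave 1 MYBL2 ChIP library and 1 input library, sequenced as single-end reads of 100 bp. Per the submitters' processing notes and the study's methods, reads were aligned to hg19 with Bowtie2 (2.1.10), reads of low mapping quality were removed and narrow peaks were called with MACS2 (2.0.10) against the input. What the additional cleaning of the list removed is not given in the sources used here. The authors deposited 1 peak list. Its fold enrichment is a linear ratio, its p-value and q-value are on the −log10 scale, and its score equals 10 times the deposited −log10 q with decimals dropped in all 66954 peaks. The lowest −log10 q was 1.31, and 0 columns of sample values went unused.

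A whole-number pileup and a background were solved from each peak's fold enrichment and −log10 p (largest misfit 3.49e-05). This was first tested on simulated data. The lowest background, 3.45 fragments, holds for 20.3% of peaks and corresponds to about 56800000 ChIP reads if fragments were 164 bp, the smallest peak width, and the genome 2700000000 bp. Over all peaks the median pileup was 20 fragments and the median fold enrichment 3.79. Pileups and their ratios have exact 95% intervals that leave out all error but counting. Any fragments copied by PCR that were left in the data would count as separate ones, and how such copies were handled was not examined.

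TSSs, exons and gene bodies came from the GENCODE annotation lifted to GRCh37, and 0 peaks lay past a chromosome end. Positions are counted from 1, and distances from the TSS of the canonical transcript. A promoter was 1000 bp either side of any TSS, so genes with more TSSs had more windows. Percentiles are among the 11941 protein-coding genes with a promoter peak. Analyses used Python 3.11.15 with pandas 2.3.3, numpy 2.4.6, scipy 1.17.1, pyfaidx 0.9.0.4 and matplotlib 3.10.9. The genes named were the 10 tubulin genes, from each list up to 3 genes of highest fold enrichment and up to 5 without a promoter peak in alphabetical order, and neighbours sharing a peak. BPHL, FAM166A, RTEL1, TUBB1, TUBB4A, TUBB8 and the neighbours of list genes were added after their values were seen. No gene was chosen for a like pattern, since 1 ChIP library has no pattern across samples. The members and the lists were chosen with earlier results of these data known.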

Additional observations from a re-analysis of the deposited data

How the results depend on the processing

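No paired analysis was possible because the ChIP and the input groups held 1 library apiece, and no library could be left out. All 10 tubulin genes kept a promoter peak under every alternative tried for it: −log10 q or fold enrichment of at least 5, a window of 500 bp, a window from 5000 bp before to 1000 bp after the TSS, counting a peak by its summit, and using the outermost TSS. Each gene's best value stayed within its counting interval, except that with the outermost TSS TUBB fell to 19.3 and TUBB2B to 4.49. The 63 peaks became 39 with −log10 q of at least 5, 26 with fold enrichment of at least 5 and 20 in promoter windows alone. Motif counts changed with the window, except ETS, at 0 in each. Within 100 bp of the summit MYB cores were found in 7 genes (61.5% of bound coding genes), CCAAT in 1 (20.2%) and TATA in 1 (3.01%). In whole peaks they were found in 10, 9 and 3, CHR in 7 and E2F in 8. The share of bound coding genes was not computed for whole peaks. The best promoter peaks of the tubulin genes were wider, with a median of 1449 bp against 865 bp, so the whole-peak counts cannot be read as high or low. With fold enrichment of at least 5, promoter peaks were left at 2 of the 4 neuronal regulators, 12 of the 15 modifying enzymes, 7 of the 8 ring complex genes and 4 of the 5 other tubulin genes that had one, and at all genes with a peak in the other lists. The pileup at TUBG1 (29 fragments, interval 19.4 to 41.6) and the 3′ peaks of the neuronal genes (13 to 19 fragments) leave small differences undetectable at this depth.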

Other observations

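Tubulin pseudogenes were examined as copies that aligned reads could reach. Of 49 annotated tubulin pseudogenes, 1 overlapped a peak, TUBBP9 on chromosome 6, with 12 fragments (95% Poisson interval 6.20 to 21.0) and a fold enrichment of 2.82. The share of all annotated pseudogenes with a peak is not given here, so 1 of 49 cannot be read as high or low. The annotated span of TUBBP9 is long (chr6:39902334-39968266), and where in it the pseudogene copy lies relative to the peak was not examined. The close relative TUBB2BP1, which lies between TUBB2A and TUBB2B, had no peak. By the study's methods, reads of low mapping quality were removed before peaks were called, which applies to reads that match several copies equally well.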
